A study of Mus musculus with 18 samples.

Results

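Genes encoded in the nucleus for the 5 complexes of oxidative phosphorylation were followed in mouse hippocampus. They were chosen by platform symbol alone: those beginning with Ndufa, Ndufb, Ndufc, Ndufs, Ndufv, Uqcr, Cox4i, Cox5, Cox6, Cox7, Cox8 or Atp5, and Sdha to Sdhd, on probe sets with a single symbol. This gave 90 genes of 18193 with a single symbol, on 179 probe sets. After the filter on low signal 164 probe sets and 89 of the 90 genes were tested, among 13121 named genes, each gene on its probe set of highest mean. The gene left out was Ndufb4, a complex I subunit, whose single probe set had a mean of 5.70 on the log2 scale. Below, it enters only the promoter counts and the alternative with no filter.

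Oxidative phosphorylation is the last stage of cellular respiration. Complexes I to IV of the inner mitochondrial membrane pass electrons from NADH and succinate to oxygen. Complexes I, III and IV pump protons, and complex V, the ATP synthase, uses the returning protons to make ATP. Most subunits are encoded in the nucleus, a small set is encoded in mitochondrial DNA, and neurons depend on the pathway for the ATP that ion pumping and synaptic transmission consume.

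The samples were hippocampus, the brain region needed for spatial memory, from mice in 3 groups of 6. One group was young, and the aged mice were divided into a group whose spatial memory was impaired and a group whose spatial memory was unimpaired. The design sets animals with good against animals with poor spatial memory. The sources used here do not give strain, sex, the ages, any treatment or the memory test, and no genetic change is named for any group. Nothing in the labels tells if the 18 samples came from 18 animals, so a p-value covers only the spread among samples as deposited, which may be technical.

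Each value is log2(signal + 16) of an array probe set, and a difference on this scale understates the change of dim genes. Arrays had a median deposited signal of 23.5 to 30.5, and the highest correlation of an array with any other ran from 0.976 to 0.983. Markers of the labelled tissue were present: the mean of 12 neuron genes lay between 13.24 and 13.52, and that of 12 genes of hippocampal subfields between 10.10 and 10.62, in the 18 samples. Microglia genes were the marker list with most calls. In aged impaired against young samples 8 of 11 were called higher, where 1.9% of named genes were called. The mean of 16 choroid plexus genes, from the neighbouring secretory tissue of the ventricles, lay between 7.08 and 7.71 in 5 samples and between 8.95 and 10.83 in the other 13. In bulk tissue, fewer cells of a type and less RNA per cell cannot be told apart.

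Of the tested genes, 33 encode subunits of complex I, 8 are assembly factors of complex I whose symbols the rule also takes in (Ndufaf1 to Ndufaf8), 4 belong to complex II, 8 to complex III, 19 to complex IV and 17 to complex V. Ndufa4 and Ndufa4l2 carry complex I symbols and are placed with complex IV, where the protein Ndufa4 is now known to sit. Ndufab1 is also the mitochondrial acyl carrier protein.

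The promoters of many genes of oxidative phosphorylation, though not of all, are known as targets of NRF1, a transcription factor that binds a palindromic GC-rich site. RefSeq promoters of GRCm38.p6, 250 bases before to 50 after each start, were matched for 74 of the 90 genes. The NRF1 motif was searched on both strands as the letters GCGCA, any 1 base and GCGC, and was present in 17 of the 74 (23.0%), against 10.9% of the named genes tested and 5.19% of all genes with a promoter. The letters CCGGAAG, the core of ETS family sites and thus of GABP, were present in 19 (25.7%), against 18.3% and 9.93%. The letters AAGATGGC, a YY1 site, were present in 10 (13.5%), against 4.94% and 3.19%. TATAAA was present in 8 (10.8%), against 9.19% and 15.7%. By complex, the first motif was present in 6 of 15 promoters of complex V, 5 of 31 of complex I, 2 of 3 of complex II, 2 of 7 of the assembly factors, 1 of 5 of complex III and 1 of 13 of complex IV. A match is a description of letters and not a measured site. The 250 bases before the start are shown for the gene of lowest p in the comparison of the aged groups among those with a match within these 250 bases, in each of the 5 gene groups that have one, because the NRF1 motif had the largest ratio of its share in the family to its share in all genes among the 4 motifs searched. Against the named genes tested, the YY1 letters had the largest such ratio. Capitals mark the NRF1 motif.
Ndufs5, complex I, chr4:123718187-123718436, minus strand: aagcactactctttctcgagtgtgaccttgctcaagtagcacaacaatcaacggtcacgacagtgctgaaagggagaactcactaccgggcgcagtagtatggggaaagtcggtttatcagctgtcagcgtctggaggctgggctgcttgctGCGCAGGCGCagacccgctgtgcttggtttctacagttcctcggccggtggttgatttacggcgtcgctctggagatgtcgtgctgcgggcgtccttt
Ndufaf4, complex I assembly, chr4:24897833-24898082, plus strand: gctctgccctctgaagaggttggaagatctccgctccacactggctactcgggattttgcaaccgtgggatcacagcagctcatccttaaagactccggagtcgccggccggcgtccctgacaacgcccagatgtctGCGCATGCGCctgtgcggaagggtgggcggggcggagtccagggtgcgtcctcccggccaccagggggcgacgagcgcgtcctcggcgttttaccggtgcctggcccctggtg
Sdha, complex II, chr13:74350241-74350490, minus strand: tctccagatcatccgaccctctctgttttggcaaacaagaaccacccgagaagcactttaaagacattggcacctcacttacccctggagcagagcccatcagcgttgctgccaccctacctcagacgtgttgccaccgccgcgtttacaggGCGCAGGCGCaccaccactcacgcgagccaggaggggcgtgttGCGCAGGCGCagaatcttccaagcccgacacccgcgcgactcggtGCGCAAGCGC
Cox6a1, complex IV, chr5:115348959-115349208, minus strand: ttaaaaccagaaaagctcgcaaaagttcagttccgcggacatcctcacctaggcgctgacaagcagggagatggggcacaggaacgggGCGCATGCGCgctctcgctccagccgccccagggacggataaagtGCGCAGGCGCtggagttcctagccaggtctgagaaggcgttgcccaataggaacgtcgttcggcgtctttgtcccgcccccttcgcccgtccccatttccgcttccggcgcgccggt
Atp5g2, complex V, chr15:102671048-102671297, minus strand: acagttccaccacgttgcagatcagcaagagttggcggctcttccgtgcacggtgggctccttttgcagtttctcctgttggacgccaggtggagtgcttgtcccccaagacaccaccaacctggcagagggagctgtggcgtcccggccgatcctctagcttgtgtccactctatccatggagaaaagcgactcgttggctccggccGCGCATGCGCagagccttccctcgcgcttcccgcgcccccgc
The Sdha stretch holds 3 matches, which begin 98, 55 and 10 bases before the start, and the Cox6a1 stretch holds 2, at 162 and 117 bases. The matches of Ndufaf4, Ndufs5 and Atp5g2 begin 113, 98 and 42 bases before the start.

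Most genes of the family moved together from sample to sample, and this shared movement did not follow the 3 groups. For each sample the median was taken over the 89 genes of the deviation from the gene's own mean over all samples. It was 0.22 in aged impaired sample 1 and 0.18 in aged impaired sample 2, and 0.0047, -0.07, -0.09 and -0.14 in the other 4 aged impaired samples. In aged unimpaired samples it ran from -0.09 to 0.09, and among the young from -0.06 to 0.04. Aged impaired samples 1 and 2 lay above every other sample and aged impaired sample 6 below every other sample, and the aged impaired group spanned the range of the others.

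The pattern was counted gene by gene, as a description that was noticed in these data. Of the 89 genes, 67 (75.3%) had their highest value in aged impaired sample 1 or 2, against 20.3% of all named genes and 41.7% of the 511 named genes as bright as the family's median gene or brighter. The same held for 35 of 45 cytosolic ribosomal proteins (77.8%), so this trait is not particular to the family. Aged impaired sample 1 was above the gene's mean for 83 genes and sample 2 for 78. The SD within the group was widest in aged impaired samples for 67 genes (75.3%), against 39.3% of all named genes, 51.7% of those as bright as the family median or brighter and 75.6% of the cytosolic ribosomal proteins described below. The median SD of a family gene was 0.16 in aged impaired, 0.11 in aged unimpaired and 0.10 in young samples. The map of all 89 genes by sample shows both arrays as columns that run through complexes I, III, IV and V.

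**Figure D1:**
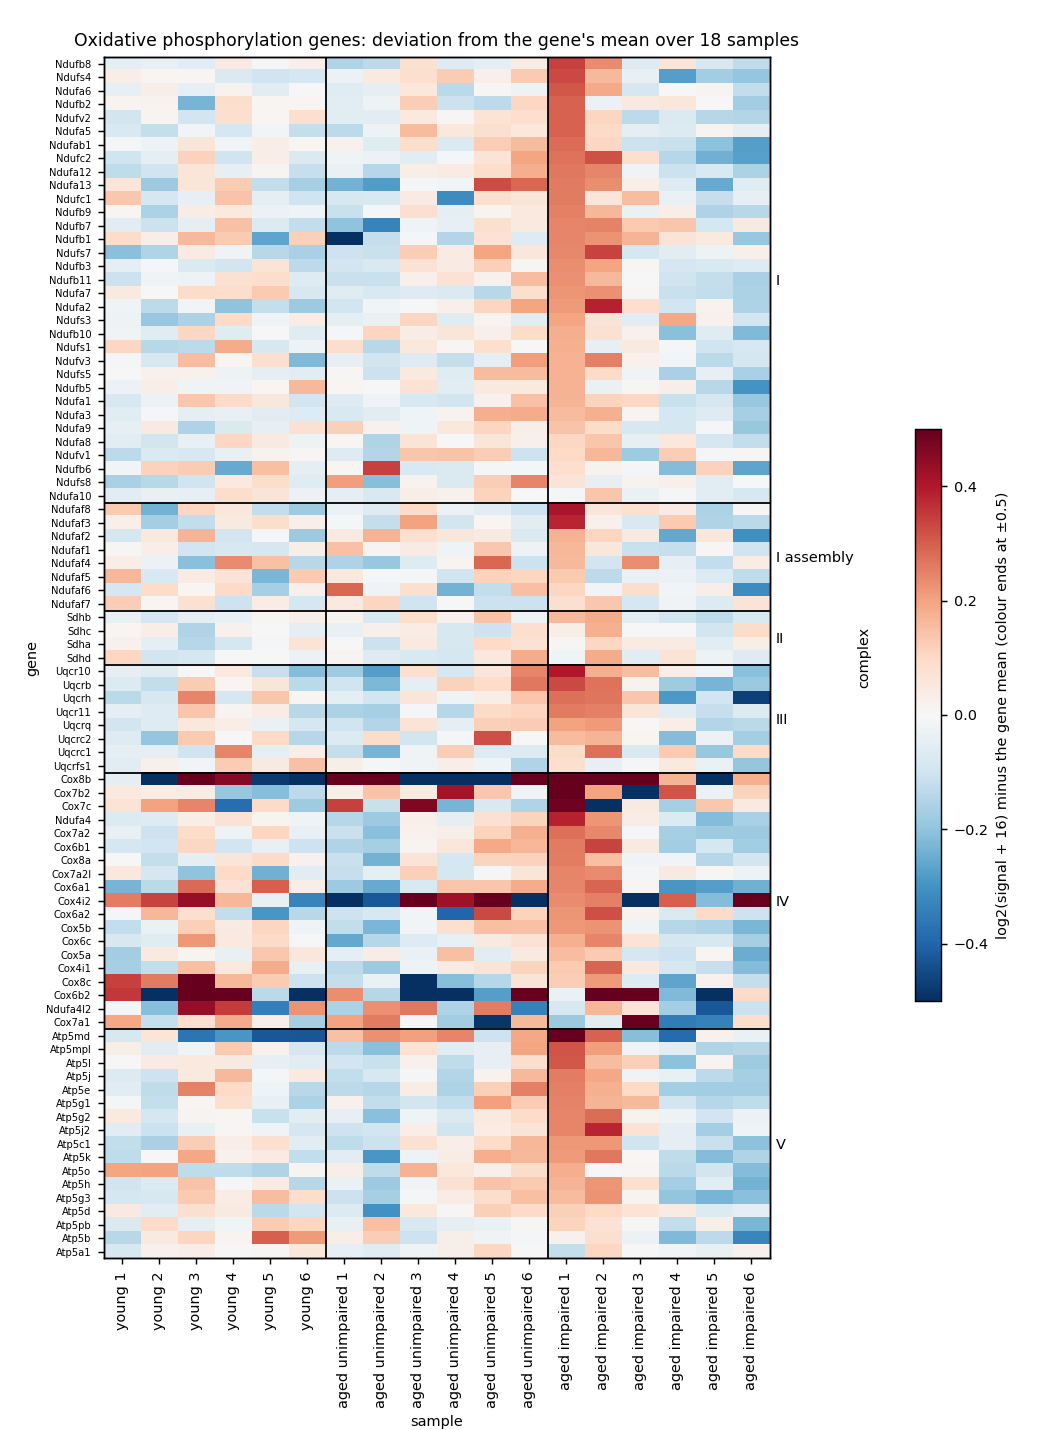
Rows are the 89 tested oxidative phosphorylation genes by complex and columns the 18 samples. Colour is log2(signal + 16) minus the gene's mean over all samples, with the colour scale ending at ±0.5; 67 of the genes are highest in aged impaired sample 1 or 2.

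By complex, the medians of aged impaired samples 1 and 2 were 0.23 and 0.16 over complex I, 0.23 and 0.23 over complex III, 0.24 and 0.23 over complex IV and 0.22 and 0.19 over complex V. Complex II, which is also an enzyme of the citric acid cycle, had 0.02 in sample 1 and 0.18 in sample 2, and all 4 of its genes were highest in sample 2. The assembly factors had 0.16 and 0.04. The 22 genes that were highest elsewhere included 8 of complex IV, among them the isoforms Cox4i2, Cox6a2, Cox6b2, Cox7a1, Cox8b, Cox8c and Ndufa4l2, and 4 of the assembly factors.

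Other gene lists were read in the same samples. The 45 cytosolic ribosomal protein genes, a list added after seeing the data, had medians of 0.24 and 0.28 in aged impaired samples 1 and 2, and the 38 proteasome genes, also added after seeing the data, 0.16 and 0.14. The 76 genes of the mitochondrial ribosome had 0.14 and 0.04, and 44 assembly genes outside the family 0.15 and 0.07. The 19 genes of pyruvate dehydrogenase and the citric acid cycle had 0.04 and 0.03, the 16 glycolysis genes -0.05 and 0.07, and the 12 neuron markers -0.02 and -0.07. The named genes as bright as the family median or brighter had 0.09 and 0.07. RNA quality, read as 3′ over 5′ signal (log2) of the actin and Gapdh control probe sets, was 0.34 and 0.37 in these samples and ran from 0.21 to 0.43 over all 18. Hippocampal subfield markers had -0.10 and -0.35, and microglia markers 0.31 and 0.68. The part of any of these in the family's movement was not tested.

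**Figure D2:**
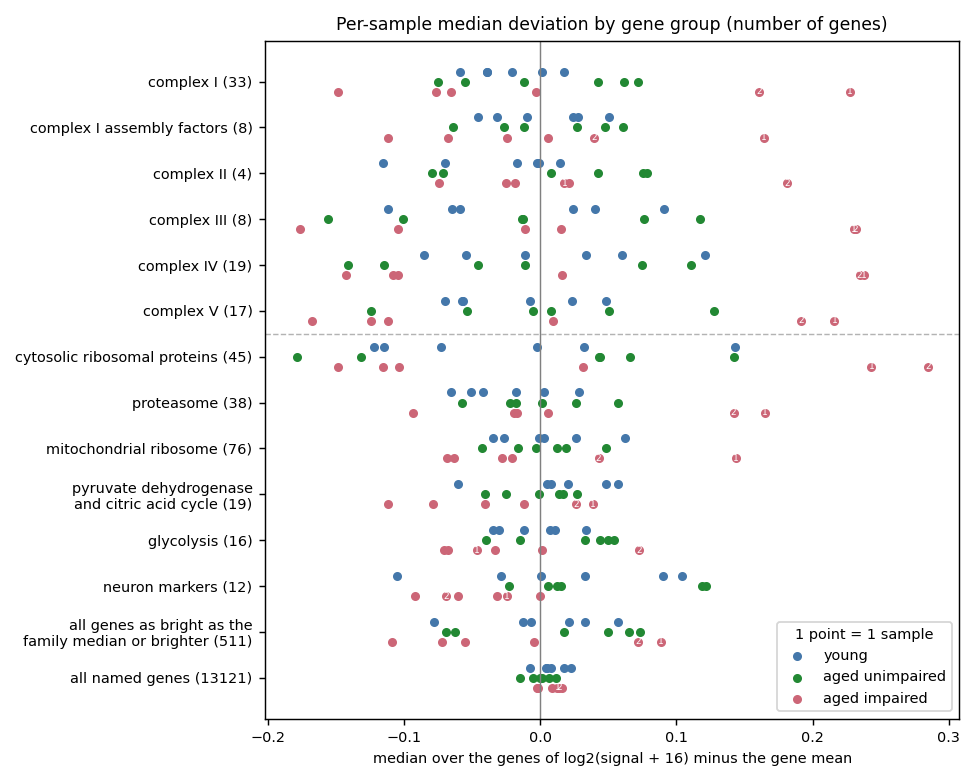
Each point is 1 sample, at the median over the genes of a group of log2(signal + 16) minus the gene's mean; rows are gene groups with their number of genes, and colours are the 3 groups of samples. The points numbered 1 and 2 are aged impaired samples 1 and 2, which lie at 0.22 and 0.18 over the whole family and at 0.24 and 0.28 over the ribosomal proteins.

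The movement was smaller under another scaling and on other probe sets, both tried after seeing the data. Aged impaired samples 1 and 2 stayed highest in both. With quantile normalization the family medians of aged impaired samples 1 and 2 were 0.14 and 0.10, and those of the other 16 samples ran from -0.07 to 0.04. The lowest was then aged unimpaired sample 2 at -0.066, and aged impaired sample 6 had -0.063. Over the 75 tested probe sets that do not stand for their gene, the medians were 0.20 and 0.12. Since both samples belong to the aged impaired group, the differences of single family genes that involve it, on the brightest probe set and without covariates, are followed by their values without both, and so are counts between the aged groups. Both samples were chosen because the family was high in them, so leaving them out lowers the aged impaired values of most members by that choice. Values without them are a description only.

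No family gene, on its brightest probe set, was called in any of the 4 comparisons between the groups. For aged impaired against aged unimpaired samples, which are both aged and differ in spatial memory, limma called 0 of 89 genes (adjusted p under 0.05, Benjamini-Hochberg), where 0.00762% of named genes were called. At an unadjusted p under 0.05 there were 2 of 89, against 8.06% of named genes. The median difference over the family was 0.01 and that over all named genes 0.01, with 48 family genes higher and 41 lower. Without aged impaired samples 1 and 2, 0 were called, the median turned to -0.06, and 20 genes were higher and 69 lower, while the median over all named genes was 0.01. A downward turn follows from leaving out samples chosen for high family values, so no group difference is read from it.

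Between aged unimpaired and young samples 0 of 89 were called, where 0.145% of named genes were called. There were 2 of 89 at an unadjusted p under 0.05, against 8.45%. The median difference was 0.01, with 53 higher and 36 lower, while over all named genes it was -0.0075, with 47.7% higher. Between aged impaired and young samples 0 of 89 were called, where 1.9% of named genes were called, and 4 of 89 had an unadjusted p under 0.05, against 16.2%. The median was 0.02, with 59 higher and 30 lower, and without aged impaired samples 1 and 2 it turned to -0.05, with 19 higher and 70 lower. Over all named genes it was -0.0030, with 49.2% higher, and -0.0041 without those samples. For both aged groups averaged, against young, 0 of 89 were called, where 1.19% of named genes were called, and 4 of 89 had an unadjusted p under 0.05, against 13.9%. The median was 0.02, with 55 higher and 34 lower, and without those samples -0.02, with 29 higher and 60 lower. Over all named genes it was -0.0059, with 48.0% higher, and -0.0079 without those samples. The last 3 comparisons share the young samples and are not independent of each other.

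The 95% intervals of the fit give bounds on these differences, for the spread among samples as deposited. Between the aged groups the interval lay within ±0.5 for 85 of 89 genes and within ±0.25 for 56. Of 13121 named genes the counts were 10169 and 3906. Within ±0.5 lay 83 family genes in each of the comparisons with young. Within ±0.25 lay 63 for aged unimpaired, 60 for aged impaired and 71 for both aged groups averaged. In the same order, 10123, 9604 and 10626 of all named genes lay within ±0.5, and 3985, 3322 and 4897 within ±0.25. Intervals of family genes that reached past ±0.5 belonged to Cox8b, Cox6b2, Cox7b2, Cox4i2, Cox8c and Atp5md. On the brightest probe set of each family gene, in no comparison did the 6 or 12 samples of one side lie wholly above or below those of the other. Of named genes, also on their brightest probe set, 0.556% were so separated between the aged groups and 0.884% between aged unimpaired and young. The shares were 2.32% between aged impaired and young and 0.381% between both aged groups and young.

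**Figure D3:**
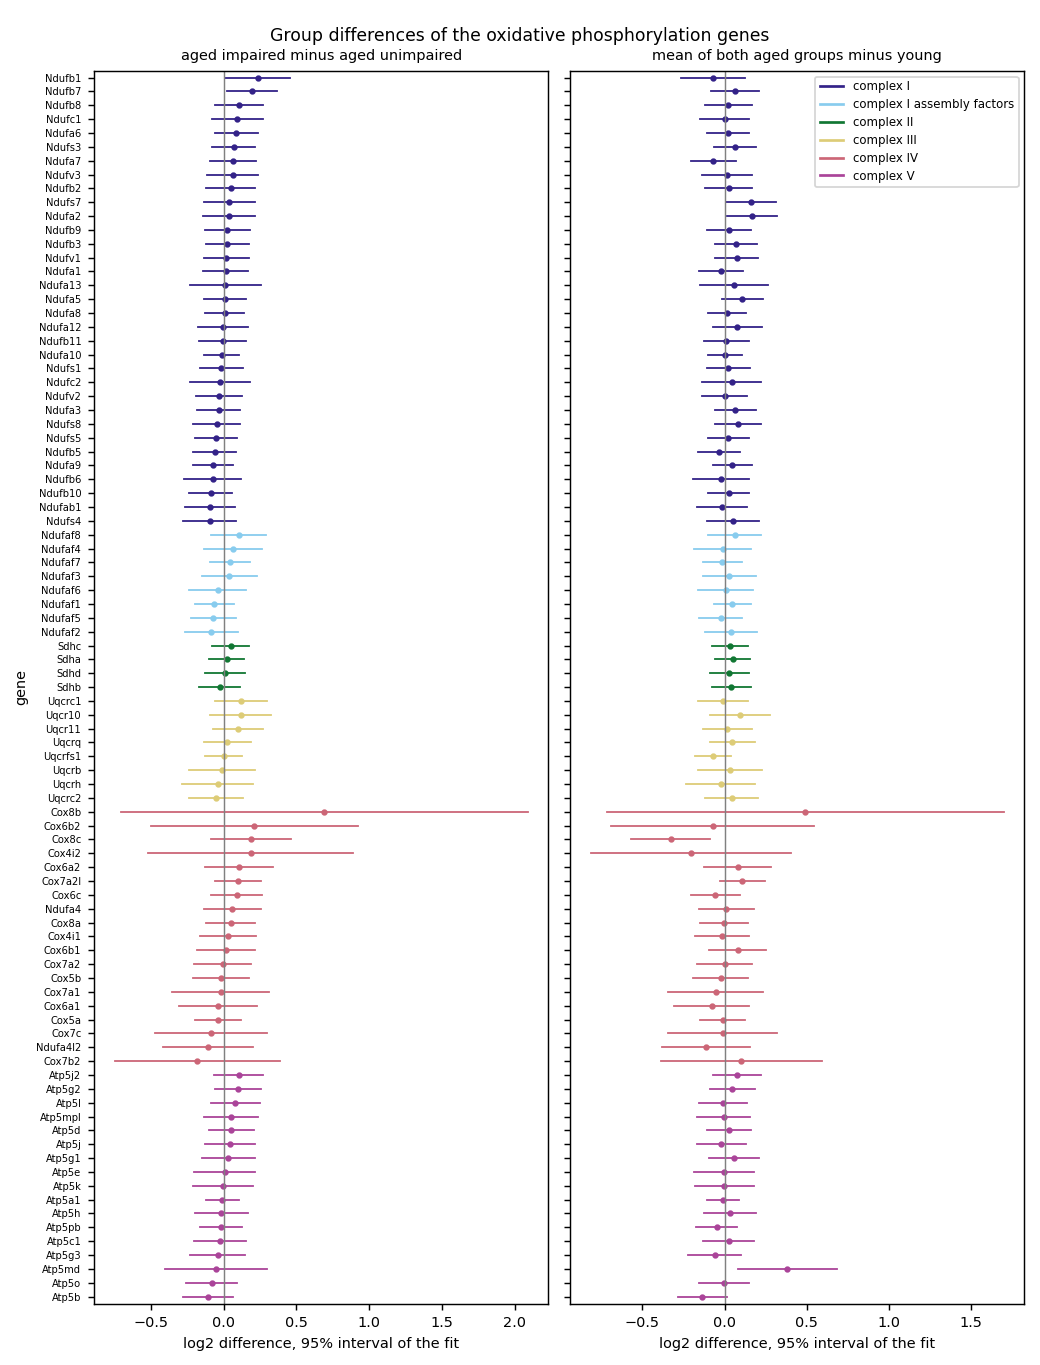
Each row is 1 gene, coloured by complex, with its log2 difference (point) and the 95% interval of the limma fit (line), for aged impaired minus aged unimpaired on the left and for the mean of both aged groups minus young on the right. Most intervals include 0; the widest belong to dim complex IV isoforms, such as Cox8b from -0.71 to 2.09 on the left.

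Complex I oxidises NADH and is the entry point for most electrons. Its core subunits measured here include Ndufs7, which carries the last iron-sulfur cluster before ubiquinone, and Ndufv1, Ndufs1 and Ndufs8, which carry other redox centres. Between the aged groups 18 of its 33 genes were higher and 15 lower, 0 called, with a median of 0.01. Against young, 24 were higher in aged unimpaired (against 47.7% of named genes) and 24 in aged impaired samples (against 49.2%), 0 called in each, with medians of 0.03 and 0.05. Without aged impaired samples 1 and 2 these counts for aged impaired samples were 4 of 33 higher than aged unimpaired and 7 of 33 higher than young, with medians of -0.07 and -0.04.

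Ndufb7, an accessory subunit of the membrane arm, had the lowest p of the family between the aged groups. Its log2 values were 12.45, 12.68 and 12.79 (lowest, median, highest) in aged impaired samples, 12.21, 12.52 and 12.62 in aged unimpaired samples and 12.42, 12.48 and 12.69 in young samples. The ranges overlap in all 3 groups, with aged impaired samples 1 and 2 at the top. The difference between the aged groups was 0.20 ± 0.08 (SE), with an adjusted p of 0.552, and 0.13 without samples 1 and 2. Ndufb1, another small accessory subunit, had 8.78, 9.09 and 9.22 in aged impaired, 8.40, 8.88 and 9.04 in aged unimpaired and 8.71, 9.08 and 9.13 in young samples. Aged unimpaired sample 1 lay lowest by a wide gap. The difference was 0.23 ± 0.11 with an adjusted p of 0.603, and 0.16 without aged impaired samples 1 and 2.

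Against young, the accessory subunit Ndufa2 had 12.51, 12.72 and 13.05 in aged impaired, 12.57, 12.68 and 12.87 in aged unimpaired and 12.47, 12.54 and 12.65 in young samples. Ndufs7 had 12.54, 12.63 and 12.97, 12.52, 12.68 and 12.82, and 12.42, 12.48 and 12.67 in the same order. Both genes had their highest value in aged impaired sample 2, and the young samples lay low with overlap. The differences of the mean of both aged groups from young were 0.17 ± 0.07 (adjusted p 0.326) for Ndufa2 and 0.16 ± 0.07 (adjusted p 0.349) for Ndufs7. Ndufa5, an accessory subunit near the redox arm, differed by 0.11 ± 0.06 (adjusted p 0.450) and Ndufa7 by -0.07 ± 0.07 (adjusted p 0.698). These differences were 0.11 for Ndufa2, 0.10 for Ndufs7, 0.07 for Ndufa5 and -0.12 for Ndufa7 without aged impaired samples 1 and 2. In this comparison the tested probe sets of Ndufs7 differed in sign, and so did those of Ndufa7. The directions given for these genes are those of the brightest probe set only.

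The assembly factors build complex I without staying in it. Between the aged groups 4 of 8 were higher and 4 lower, 0 called. Among them Ndufaf8 differed by 0.10 ± 0.09 (adjusted p 0.801) and Ndufaf1 by -0.06 ± 0.06 (adjusted p 0.823), and by 0.02 and -0.13 without aged impaired samples 1 and 2. The tested probe sets of Ndufaf8 differed in sign between the aged groups. Against young, 6 of 8 were higher in aged unimpaired and 5 of 8 in aged impaired samples, 0 called. Without aged impaired samples 1 and 2, 2 of 8 were higher and 6 lower both between the aged groups (median -0.06) and in aged impaired against young samples (median -0.04). A list of 44 assembly genes of the complexes outside the family had 0 calls in all 4 comparisons and medians between -0.01 and 0.02.

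Complex II is succinate dehydrogenase: Sdha binds the flavin, Sdhb carries the iron-sulfur clusters, and Sdhc and Sdhd anchor the enzyme in the membrane. Sdha had 12.81, 12.90 and 12.97 in aged impaired, 12.76, 12.90 and 12.97 in aged unimpaired and 12.73, 12.84 and 12.94 in young samples. All 4 genes had intervals within ±0.25 in each comparison. The differences between the aged groups ran from -0.03 for Sdhb to 0.05 for Sdhc, and those of the mean of both aged groups from young from 0.03 to 0.05. Sdhb differed by -0.12 and Sdhc by 0.01 between the aged groups without aged impaired samples 1 and 2, with 2 of 4 genes higher. The tested probe sets of Sdhc differed in sign in each comparison, and so did those of Sdhd.

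Complex III passes electrons from ubiquinol to cytochrome c. Between the aged groups 4 of 8 genes were higher and 4 lower, 0 called. Uqcrc1, a core protein, had 12.80, 13.09 and 13.27 in aged impaired, 12.76, 12.93 and 13.11 in aged unimpaired and 12.89, 12.94 and 13.24 in young samples, and differed by 0.12 ± 0.08 between the aged groups (adjusted p 0.748). The ranges of all 3 groups overlap. Uqcr11, a small subunit, differed by 0.10 ± 0.08 (adjusted p 0.788) between the aged groups. Without aged impaired samples 1 and 2 these differences were 0.06 for Uqcrc1 and 0.000627 for Uqcr11, and 3 of 8 genes of the complex were higher and 5 lower. Against young, Uqcrfs1, the Rieske iron-sulfur protein, differed by -0.07 ± 0.05 (adjusted p 0.609) and Uqcr10 by 0.10 ± 0.09 (adjusted p 0.678) in the mean of both aged groups, and by -0.08 and 0.05 without those samples. The tested probe sets of Uqcr10 differed in sign in this comparison.

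Complex V makes ATP: Atp5a1, Atp5b, Atp5c1, Atp5d and Atp5e form its catalytic head and central stalk, Atp5g1, Atp5g2 and Atp5g3 encode the same mature c subunit of the rotor, and small proteins such as Atp5md help to join the enzyme into dimers. Between the aged groups 8 of 17 genes were higher and 9 lower, 0 called. Without aged impaired samples 1 and 2, 2 of 17 were higher and 15 lower, with a median of -0.08 and 0 called. Atp5b, the catalytic beta subunit, had 14.05, 14.29 and 14.45 in aged impaired, 14.27, 14.38 and 14.50 in aged unimpaired and 14.23, 14.45 and 14.67 in young samples. Its lowest value was that of aged impaired sample 6 and its highest that of young sample 5, and the groups overlap. The difference of aged impaired from young was -0.19 ± 0.08, with an adjusted p of 0.268, and -0.27 (adjusted p 0.154) without samples 1 and 2.

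Atp5md had 13.04, 13.42 and 14.35 in aged impaired, 13.32, 13.62 and 13.67 in aged unimpaired and 13.00, 13.10 and 13.49 in young samples. Of the aged unimpaired samples 5 lay close together above the young range, the other lay within it, and aged impaired sample 1 stood far above the rest. The difference from young was 0.41 ± 0.17 for aged unimpaired (adjusted p 0.516), 0.36 ± 0.17 for aged impaired (adjusted p 0.307) and 0.38 ± 0.14 for the mean of both (adjusted p 0.250). For aged impaired samples it was 0.19 without sample 1 and 0.10 without samples 1 and 2, and for the mean of both groups 0.25 without samples 1 and 2. The c subunit genes differed between aged impaired and young samples by 0.07 ± 0.09 for Atp5g1, 0.10 ± 0.07 for Atp5g2 and -0.08 ± 0.09 for Atp5g3, with adjusted p of 0.723, 0.566 and 0.715. They were -0.01, -0.0013 and -0.20 without aged impaired samples 1 and 2.

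A dim second probe set of Atp5g1, with a mean log2 value of 7.41, was called in aged impaired against young samples, where 1.63% of all probe sets were called. No other of the 164 tested probe sets of the family was called there, and 0 of 164 in the other comparisons, where 0.0111% (between the aged groups), 0.137% (aged unimpaired against young) and 0.947% (both aged groups against young) of all probe sets were called. It was lower in aged impaired than in young samples by 0.67 ± 0.16, with an adjusted p of 0.0430 in limma, and the 6 samples of each group did not overlap. Of named genes on their brightest probe set 2.32% were so separated in this comparison, and the share over all probe sets was not computed. The call was lost in 20 of 31 alternatives, with adjusted p from 0.0238 to 0.170 and differences from -0.75 to -0.51. Among them were 15 of the 18 that leave out 1 sample, where it was kept only without aged impaired sample 3 or aged unimpaired sample 5 or 6, and the one without aged impaired samples 1 and 2 (-0.64, adjusted p 0.106). The bright probe set of the same gene, with a mean of 12.12, differed by 0.07 as given above. Of the 48 genes with more than 1 tested probe set, the probe sets differed in sign for 24 between the aged groups, 28 between aged unimpaired and young, 29 between aged impaired and young and 28 between both aged groups and young.

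**Figure D4:**
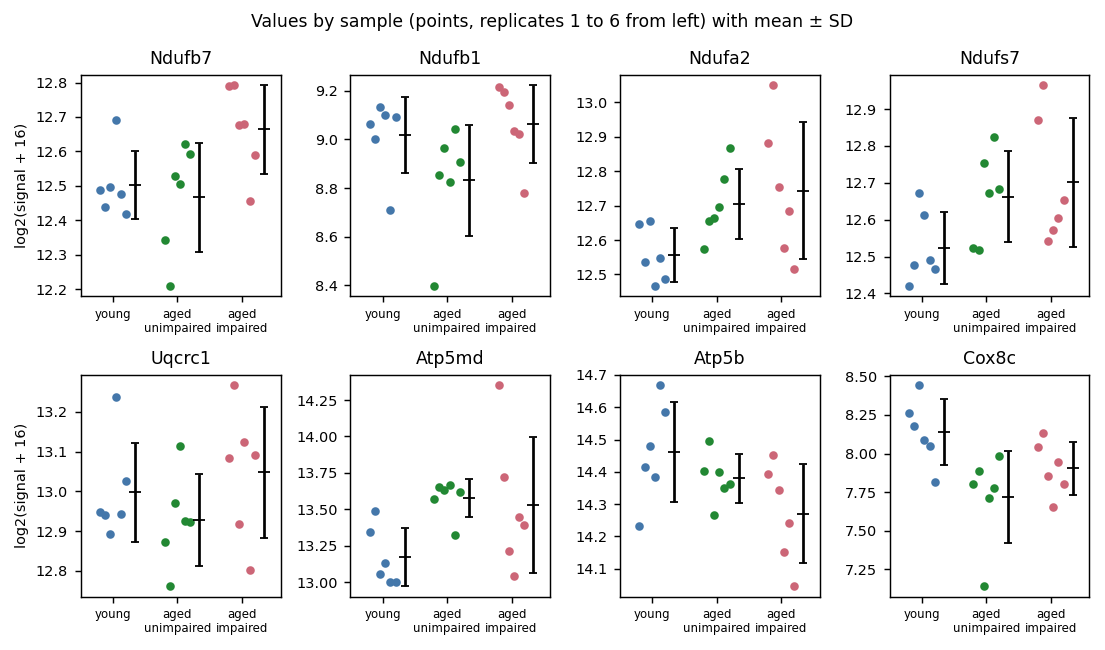
Log2(signal + 16) of 8 family genes by sample (points, replicates 1 to 6 from left to right, which have no order) with mean ± SD of each group of 6 (black). The groups overlap in every panel; Atp5md reaches 14.35 in aged impaired sample 1.

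Complex IV, cytochrome c oxidase, passes electrons to oxygen, and several of its nuclear subunits exist as isoform pairs, a widespread form and one known from heart, skeletal muscle, lung, testis or hypoxic cells. The widespread forms Cox4i1, Cox6a1, Cox6b1, Cox7a2, Cox8a and Ndufa4 had means of 14.57, 15.15, 14.30, 14.49, 13.42 and 13.75. Their partners Cox4i2, Cox6a2, Cox6b2, Cox7a1, Cox8b and Ndufa4l2 had 6.00, 8.68, 8.49, 7.21, 8.36 and 7.38. These values come from different probe sets and do not order the genes against each other.

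None of the isoforms was called in any comparison. Between the aged groups the widespread forms differed by 0.03 ± 0.09 for Cox4i1, -0.04 ± 0.13 for Cox6a1, 0.02 ± 0.10 for Cox6b1, -0.01 ± 0.09 for Cox7a2, 0.05 ± 0.08 for Cox8a and 0.06 ± 0.09 for Ndufa4. The partners differed by 0.19 ± 0.33 for Cox4i2, 0.11 ± 0.11 for Cox6a2, 0.21 ± 0.34 for Cox6b2, -0.02 ± 0.16 for Cox7a1, 0.69 ± 0.66 for Cox8b and -0.11 ± 0.15 for Ndufa4l2. The standard errors of Cox4i2, Cox6b2 and Cox8b were above those of every widespread form. Between the aged groups the tested probe sets of Cox6a1 differed in sign, and so did those of Cox6b1 and of Cox7a2. Without aged impaired samples 1 and 2 the differences were -0.07, -0.19, -0.12, -0.14, -0.04 and -0.08 for the widespread forms and 0.08, 0.01, 0.05, 0.02, 0.36 and -0.17 for the partners, in the order given. For both aged groups averaged, the differences from young were -0.01, -0.08, 0.08, 0.00055, -0.0017 and 0.01 for the widespread forms and -0.21, 0.08, -0.07, -0.05, 0.49 and -0.11 for the partners, in the same order. Without those samples they were -0.07, -0.16, 0.01, -0.06, -0.05 and -0.06, and -0.26, 0.03, -0.16, -0.03, 0.32 and -0.15. Of 14 striated muscle markers listed, 5 were tested, with a mean between 7.66 and 8.36 per sample, and 0 called.

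Cox8c, an isoform known from testis, had 7.66, 7.90 and 8.13 in aged impaired, 7.14, 7.79 and 7.98 in aged unimpaired and 7.82, 8.13 and 8.44 in young samples. The young samples lay high and the groups overlap. It differed from young by -0.42 ± 0.13 in aged unimpaired samples (adjusted p 0.331) and by -0.33 ± 0.11 in the mean of both aged groups (adjusted p 0.208), the latter -0.37 without aged impaired samples 1 and 2. For aged impaired against young samples, the 95% interval on its brightest probe set ran from -0.51 to 0.04, which includes 0. The second, dimmer probe set of Cox8c had a mean of 6.21, where the lowest mean of a tested probe set was 5.92. It differed by -1.19 ± 0.32 between aged impaired and young samples (adjusted p 0.0741), and by -1.09 (adjusted p 0.183) without aged impaired samples 1 and 2. When all probe sets of each gene were averaged, Cox8c was called, at -0.71 (adjusted p 0.0325) for aged impaired and -0.66 (adjusted p 0.0299) for both aged groups against young, where 2.11% and 1.2% of named genes were called. The dim second probe set enters these averages, and on the brightest probe set Cox8c was called in neither comparison. Cox7a2l, which joins complexes III and IV, differed by 0.16 ± 0.08 between aged impaired and young samples (adjusted p 0.324), and Cox6c by 0.09 ± 0.08 between the aged groups (adjusted p 0.810). These were 0.08 for Cox7a2l and -0.0020 for Cox6c without aged impaired samples 1 and 2.

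Cox8b and Cox6b2 varied more within each group than between groups, and with the choroid plexus genes. Cox8b had 7.01, 9.03 and 10.06 in aged impaired, 6.68, 7.92 and 10.37 in aged unimpaired and 6.36, 8.10 and 9.21 in young samples. Cox6b2 had 7.69, 8.52 and 9.35, 7.62, 8.28 and 9.50, and 7.75, 8.60 and 9.22 in the same order. In the 5 samples with a choroid plexus mean between 7.08 and 7.71, Cox8b lay between 6.36 and 7.01 and Cox6b2 between 7.62 and 8.22. In the other 13, Cox8b lay between 7.61 and 10.37 and Cox6b2 between 7.95 and 9.50. The low samples were aged impaired sample 5, aged unimpaired samples 3, 4 and 5 and young sample 6. The choroid plexus values form these separate clusters, so no correlation over all samples is given, and the slopes below are given over all samples and within the cluster of 13.

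In the fit with the choroid plexus mean as a covariate, the slope of Cox8b was 0.93 ± 0.06 per log2 unit (adjusted p 1.15e-08) and that of Cox6b2 0.44 ± 0.05 (adjusted p 4.73e-05). They were the 2 of 89 family genes with a called slope (2.25%), against 1.87% of named genes. Both clusters enter these slopes. Within the 13 samples of high choroid plexus signal, a fit added after seeing the data, the slopes were 0.98 ± 0.17 (adjusted p 0.0234) for Cox8b and 0.76 ± 0.12 (adjusted p 0.0147) for Cox6b2, where 0.64% of named genes had a called slope. The cluster of 5 is too small for a slope of its own. Choroid plexus genes were higher in aged impaired than in aged unimpaired samples for 16 of 16 genes, with a median of 0.79, and lower in aged unimpaired than in young samples for 16 of 16, with a median of -0.84, and 0 were called in either comparison.

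With that covariate Cox8b was the 1 family gene called in each comparison with young, in 1 of the 33 alternatives tried. It was higher than young by 0.93 in aged unimpaired (adjusted p 0.0337), 0.85 in aged impaired (adjusted p 0.0142) and 0.89 in the mean of both aged groups (adjusted p 0.00514), where 0.213%, 2.42% and 1.44% of named genes were called. Without the covariate the differences were 0.15 (adjusted p 0.976), 0.84 (adjusted p 0.581) and 0.49 (adjusted p 0.763), the last 2 being 0.50 and 0.32 without aged impaired samples 1 and 2. Leaving out each sample in turn, the adjusted p with the covariate ran from 0.0187 to 0.200 for aged unimpaired, from 0.00769 to 0.0366 for aged impaired and from 0.00296 to 0.0178 for both. The first of these calls was lost without aged impaired sample 4, without aged unimpaired sample 1, 4 or 6, and without young sample 2, 4, 5 or 6. On only the 13 samples with high choroid plexus signal, chosen after seeing the data, Cox8b was not called, at 1.17 (adjusted p 0.782), 0.87 (adjusted p 0.346) and 1.02 (adjusted p 0.377). In those samples the 8 aged values lay between 8.53 and 10.37 and the 5 young values between 7.61 and 9.21, with overlap. Whether the RNA of Cox8b came from choroid plexus cells was not tested.

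**Figure D5:**
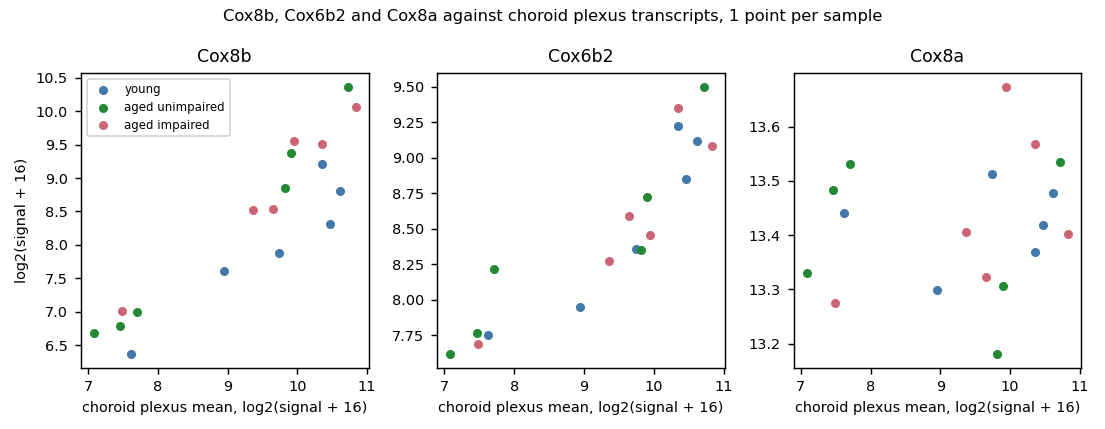
Each point is 1 sample, coloured by group: the horizontal axis is the mean of 16 choroid plexus genes and the vertical axis the value of Cox8b, Cox6b2 or Cox8a, all as log2(signal + 16). Cox8b lies between 6.36 and 7.01 in the 5 samples of low choroid plexus signal and between 7.61 and 10.37 in the other 13.

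Genes around the family were read from lists of the pathway. The 19 electron carriers outside the family, the 19 genes of pyruvate dehydrogenase and the citric acid cycle, the 27 regulators of mitochondrial gene expression, the 17 mitochondrial carriers and channels and the 76 genes of the mitochondrial ribosome had 0 calls in all 4 comparisons. Of 16 glycolysis genes 1 was called, Slc2a1, the glucose transporter of the blood-brain barrier, which rose by 0.41 ± 0.08 in aged impaired against young samples (adjusted p 0.0188) and by 0.37 ± 0.07 in both aged groups against young (adjusted p 0.0187), where 1.9% and 1.19% of named genes were called. The first of these calls was lost in 5 of 32 alternatives, among them without aged impaired samples 1 and 2 (0.30, adjusted p 0.0709) and without young sample 6 (adjusted p 0.0506), and the second in 4 of 31, among them without young sample 5 (adjusted p 0.0527) or 6 (adjusted p 0.0608). Gabpa, the DNA-binding subunit of GABP, differed from young by -0.14 ± 0.06 in the mean of both aged groups (adjusted p 0.339). ND5, a complex I subunit and the 1 mitochondrially encoded gene with a tested probe set, had 14.85 to 15.82 in aged impaired, 15.35 to 15.90 in aged unimpaired and 15.28 to 16.06 in young samples. It differed by -0.22 between the aged groups and by -0.10 between both aged groups and young, and was called in neither.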

How the data were processed

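The authors deposited linear probe set intensity for 18 arrays, computed by MAS5 (version not given in the sources used here) per the submitters' processing notes. Biotin-labelled total RNA was used, per the labels' protocols. The deposited intensity table holds 45101 probe sets, with a trimmed mean of 150 in every array. Each array was rescaled here to a trimmed mean of 500 (2% left out at each end), 16 was then added to the rescaled intensity and log2 was taken. The 64 control probe sets and the 40% of lowest mean were left out, which left 27022. Precision is limited by the number of arrays.

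Symbols came from the platform annotation: 34945 probe sets have 1 symbol, 932 several and 9160 none, and 34754 were matched in a RefSeq table of GRCm38.p6. Group means of the 3 groups were fitted over all samples with limma 3.58.1 (R 4.3.3), with empirical Bayes moderation and 2-sided tests, with Benjamini-Hochberg adjustment over all probe sets tested. Python 3.11.15 and pandas 2.3.3 were used for the summaries. The fit was tested on simulated data. Errors after ± are standard errors.

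The members and lists were chosen with earlier results of these data known. Differences were named for the 8 genes of lowest p in each comparison, the 2 of lowest p in each complex and the isoform pairs. The rule also took in genes whose probe sets differ in sign, and these are given as counts, with some named beside their differences. Of the genes so named, those with no difference printed in the report are not described singly. Alternatives tried were offsets of 1 and 64, quantile normalization, a filter of 60% or none, the sample number as a block, RNA quality and choroid plexus covariates, array weights, trended and robust moderation, only the groups compared, the mean of all probe sets, and leaving out each sample. Leaving out aged impaired samples 1 and 2 together, a ribosomal protein covariate, only arrays with a choroid plexus mean above 8.5, and leave-one-out with the choroid plexus covariate were chosen after seeing the data. A fit with a neuron minus glia covariate and one without the 6 arrays of lowest choroid plexus signal were dropped before their values were read.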

Additional observations from a re-analysis of the deposited data

Results flagged for a closer look

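Values of 6 samples in a group were examined for 1 sample far from the others, in 141 groups over 40 named genes and the medians of the family and its complexes; 10 stood apart, and chance gives about 1 in 20 such groups. The complex II median of aged impaired sample 2 was 0.18, while the other aged impaired samples lay between -0.07 and 0.02. Among genes, aged unimpaired samples stood low for Atp5md (13.32 in sample 5, others 13.57 to 13.67), Cox8c (7.14 in sample 3, others 7.71 to 7.98), Ndufb1 (8.40 in sample 1, others 8.83 to 9.04) and Uqcrfs1 (12.30 in sample 6, others 12.43 to 12.49). They stood high for Ndufa7 (12.81 in sample 6, others 12.60 to 12.68) and Ndufaf8 (10.91 in sample 3, others 10.71 to 10.78). Young samples stood high for Cox6b1 (14.40 in sample 3, others 14.20 to 14.26) and Ndufb7 (12.69 in sample 4, others 12.42 to 12.50) and low for Ndufb1 (8.71 in sample 5, others up to 9.13).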

How the results depend on the processing

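On its brightest probe set no family gene passed the threshold without alternatives. Every gene value below is thus that of a difference not called unless said otherwise. Over 33 alternatives the count of family genes called stayed at 0, except 1 with the choroid plexus covariate in each comparison with young (Cox8b) and 1 with the mean of all probe sets in aged impaired and in both aged groups against young (Cox8c). At an unadjusted p under 0.05 in limma, 0 to 7 family genes passed between the aged groups, 1 to 5 in aged unimpaired, 0 to 6 in aged impaired and 2 to 8 in both aged groups against young. The family median ran from -0.06 to 0.07 between the aged groups, -0.03 to 0.03 for aged unimpaired, -0.05 to 0.05 for aged impaired and -0.02 to 0.03 for both aged groups against young, so its sign depends on the setting. Counts of called probe sets over the whole array were 3, 37, 440 and 256 in the limma fit reported (aged impaired against aged unimpaired, aged unimpaired, aged impaired and both aged groups against young). With the replicate block they were 0, 17, 240 and 141, with 0 family genes called. Of 18 same-numbered pairs of samples 0 correlated over 0.1 (highest 0.096), and 0 samples correlated best with their own number. No pairing by number showed in these values, which cannot tell whether same-numbered samples were handled together. In fits of only the groups compared the first 3 counts were 0, 22 and 241 (2126 between the aged groups at an unadjusted p under 0.05, and 2050 with the block), and with no filter the last 3 were 13, 193 and 131. On only the arrays of high choroid plexus signal the last 3 were 14, 130 and 55. For aged unimpaired against young the count was 23 with the RNA quality covariate, 57 with array weights and 58 with trended and robust moderation. For the aged groups it was 6 with a filter of 60% and 9 with trended and robust moderation. Without both aged impaired samples 1 and 2 it was 226 for aged impaired against young. Leaving out each sample in turn gave 16 to 37, 228 to 467 and 116 to 274 in the comparisons with young. The samples whose omission moved the count over 1.5 times were aged unimpaired 1, 3 and 6 and young 2, 5 and 6 for aged unimpaired, aged impaired 2, 3 and 6 and young 1, 3, 5 and 6 for aged impaired, and aged unimpaired 3 and young 1, 2, 3, 5 and 6 for both aged groups against young. Of 3788 values of named genes under alternatives, 3587 kept their sign and their side of the threshold, 196 changed sign and 5 passed the threshold. With the RNA quality covariate, the difference of aged impaired minus aged unimpaired turned to 0.046 for Atp5g3, 0.12 for Cox6a1 and 0.078 for Cox7a2. In aged unimpaired minus young it became -0.000875 for Atp5g1, -0.018 for Cox6a2, -0.022 for Cox6b1, -0.076 for Cox7a2 and -0.077 for Cox8b. For aged impaired minus young the values were 0.0027 for Cox7a2. It was -0.036 for Cox7a2 and -0.019 for Ndufa4 in both aged groups minus young. With array weights, the difference of aged impaired minus aged unimpaired turned to -0.000667 for Cox4i1 and -0.028 for Cox6b1. In aged unimpaired minus young it became 0.000957 for Atp5g2. For aged impaired minus young the values were -0.027 for Cox4i1, -0.0093 for Cox8a and -0.0017 for Ndufa4. It was -0.023 for Cox7a2 and -0.011 for Ndufa4 in both aged groups minus young. With the choroid plexus covariate, the difference of aged impaired minus aged unimpaired turned to -0.014 for Atp5g1, -0.15 for Cox6b2 and -0.079 for Cox8b. In aged unimpaired minus young it became 0.023 for Atp5g2, 0.19 for Cox6b2, 0.089 for Cox7a1 and 0.0058 for Ndufa4. For both aged groups minus young the values were 0.12 for Cox6b2, 0.014 for Cox7a1 and 0.0043 for Cox8a. Without both aged impaired samples 1 and 2, the difference of aged impaired minus aged unimpaired turned to -0.053 for Atp5g1, -0.071 for Cox4i1, -0.12 for Cox6b1, 0.024 for Cox7a1, -0.043 for Cox8a, -0.076 for Ndufa4 and -0.0066 for Ndufb8. Values of -0.012 for Atp5g1, -0.0013 for Atp5g2, -0.10 for Cox4i1, -0.045 for Cox6b1, -0.13 for Cox6b2, -0.068 for Cox8a and -0.096 for Ndufa4 stood in aged impaired minus young. In both aged groups minus young it became -0.0016 for Atp5g2, -0.065 for Cox7a2, -0.058 for Ndufa4 and -0.0026 for Sdhb. With the mean of all probe sets, the difference of aged impaired minus aged unimpaired turned to -0.18 for Atp5g1, 0.000753 for Cox6a1, 0.013 for Cox7a2, -0.10 for Cox8c, -0.025 for Ndufaf8 and -0.087 for Sdhc. It was -0.12 for Atp5g1 and -0.11 for Ndufs8 in aged unimpaired minus young. Values of -0.30 for Atp5g1, 0.034 for Cox7a2 and -0.17 for Sdhc stood in aged impaired minus young. In both aged groups minus young it became -0.21 for Atp5g1. On only the arrays of high choroid plexus signal, the difference of aged impaired minus aged unimpaired turned to 0.039 for Atp5g3, 0.083 for Cox6a1, -0.11 for Cox6b2, 0.079 for Cox7a2, -0.30 for Cox8b, 0.064 for Ndufa4l2 and 0.054 for Sdhb. It was -0.0071 for Cox6b1, 0.16 for Cox6b2, 0.13 for Cox7a1 and -0.054 for Cox7a2 in aged unimpaired minus young. Values of 0.025 for Cox7a2 stood in aged impaired minus young. In both aged groups minus young it became 0.11 for Cox6b2, 0.045 for Cox7a1 and -0.015 for Cox7a2. With quantile normalization, the difference of aged impaired minus aged unimpaired turned to 0.023 for Cox6a1 and 0.013 for Cox7a2. It was 0.013 for Cox6a1 in aged unimpaired minus young. Values of 0.035 for Cox6a1 and 0.034 for Cox7a2 stood in aged impaired minus young. In both aged groups minus young it became 0.017 for Cox4i1, 0.024 for Cox6a1 and -0.0042 for Ndufa4. With the ribosomal protein covariate, the difference of aged impaired minus aged unimpaired turned to -0.0035 for Cox4i1 and -0.020 for Cox6b1. It was -0.017 for Cox7a2 in aged unimpaired minus young. Values of -0.053 for Cox4i1, -0.070 for Cox6b2, -0.016 for Cox8a and -0.014 for Ndufa4 stood in aged impaired minus young. In both aged groups minus young it became -0.038 for Cox7a2 and -0.027 for Ndufa4. Leaving out each sample in turn also turned signs: the difference of aged impaired minus aged unimpaired ran from -0.0091 to 0.074 for Atp5g1, -0.026 to 0.075 for Cox4i1, -0.036 to 0.44 for Cox4i2, -0.10 to 0.011 for Cox6a1, -0.045 to 0.058 for Cox6b1, -0.16 to 0.044 for Cox7a1, -0.063 to 0.029 for Cox7a2 and -0.011 to 0.11 for Ndufa4. In aged unimpaired minus young the range was -0.027 to 0.033 for Atp5g2, -0.065 to 0.0054 for Cox4i1, -0.043 to 0.10 for Cox6a2, -0.097 to 0.052 for Cox7a1, -0.030 to 0.046 for Cox7a2, -0.053 to 0.018 for Cox8a, -0.29 to 0.45 for Cox8b, -0.048 to 0.011 for Ndufa4 and -0.14 to 0.014 for Ndufa4l2. In aged impaired minus young the range was -0.056 to 0.045 for Cox4i1, -0.27 to 0.14 for Cox4i2, -0.13 to 0.21 for Cox6b2, -0.20 to 0.000105 for Cox7a1, -0.059 to 0.033 for Cox7a2, -0.025 to 0.055 for Cox8a and -0.031 to 0.090 for Ndufa4. In both aged groups minus young the range was -0.050 to 0.020 for Cox4i1, -0.23 to 0.063 for Cox6b2, -0.027 to 0.022 for Cox7a2, -0.026 to 0.020 for Cox8a and -0.026 to 0.035 for Ndufa4. The cause of these changes was not tested. Precision is lowest for a few probe sets: the intervals of Cox8b, Cox6b2, Cox7b2 and Cox4i2 reach past ±0.5 in every comparison.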
